A study of Mus musculus with 74 samples.

Results

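The genes studied here encode the subunits of the NCOR corepressor complex, *Gps2*, *Ncor1*, *Hdac3*, *Tbl1x* and *Tbl1xr1*, and they were chosen by symbol. They are 5 of the 14583 genes in the deposited RNA table, and the ChIP-seq tables assign between 13 and 119 peaks to them by the nearest transcription start, of 27842 to 115042 peaks per table. The 74 libraries came from livers of C57BL/6 mice aged 8 to 12 weeks on chow diet. *Gps2* LKO mice carried *Gps2* flox/flox alleles and Alb-*Cre*, whose albumin promoter acts in hepatocytes, and their controls, called WT, were *Gps2* flox/flox mice of the same breedings, so both groups carried the floxed alleles. *Ncor* LKO mice lacked NCOR in the liver, *Ppara* KO mice lacked PPARα in the whole body, and each had WT controls of its own. RNA was measured in 4 WT and 4 *Gps2* LKO livers. No RNA of the *Ncor* and *Ppara* lines was analysed here, so those deletions were not checked from RNA. Each ChIP library pooled several precipitations. The methods call replicate experiments biological replicates, and the labels do not tie the numbered libraries to animals.

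NCOR, encoded by *Ncor1*, is the scaffold that nuclear receptors recruit in the absence of an activating ligand. It holds and activates HDAC3, a histone deacetylase, while TBL1X and TBL1XR1 are related WD40-repeat proteins that bind histones and take part in exchanging corepressors for coactivators, and GPS2 is a small subunit that contacts both. Acetylation of histone H3 at lysine 27 (H3K27ac) marks active promoters and enhancers, and trimethylation at lysine 4 (H3K4me3) marks promoters. PPARα is the nuclear receptor that drives fatty acid oxidation genes in the liver.

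On mm9, *Ncor1* lies at chr11:62129928-62272043 on the minus strand, and *Gps2* at chr11:69727390-69730093 and *Tbl1x* at chrX:74756352-74908322 on the plus strand. *Pigl* starts 256 bp from the *Ncor1* start on the other strand and overlaps it, and *Neurl4* ends 65 bp before *Gps2*, so peaks at these starts may belong to either gene, and counting by strand is not stated for the RNA table. Most of the binding described below lies upstream of *Tbl1xr1*, which spans 140 kb on chromosome 3 (mm9, chr3:21975574-22115516, plus strand). The next protein-coding gene upstream, *Agtr1b*, ends 1709 kb away, so the distant peaks are assigned to *Tbl1xr1* by nearness alone. The distant upstream windows of *Tbl1xr1* with the most GPS2 tags are shown, and the *Tbl1x* window with the most GPS2 tags away from its start. They are printed on the plus strand of mm9, and several calls described below lie at other sites. In the windows 114 and 80.9 kb upstream, capitals mark the best match, with at most 2 mismatches, to a direct repeat of AGGTCA with any 1 base between the copies, the kind of element that PPARα and RXR bind. In the windows of *Tbl1xr1* 141 kb upstream and of *Tbl1x* 1.88 kb upstream, capitals mark a stretch that both share.
Tbl1xr1, 168 kb upstream, chr3:21807873-21808009: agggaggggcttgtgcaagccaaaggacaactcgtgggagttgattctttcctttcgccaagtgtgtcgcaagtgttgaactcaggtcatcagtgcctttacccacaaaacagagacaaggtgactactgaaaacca
Tbl1xr1, 141 kb upstream, chr3:21834993-21835129: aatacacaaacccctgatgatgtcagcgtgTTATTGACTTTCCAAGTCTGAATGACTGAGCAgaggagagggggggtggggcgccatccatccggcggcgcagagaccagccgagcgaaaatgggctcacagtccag
Tbl1xr1, 114 kb upstream, chr3:21861366-21861502: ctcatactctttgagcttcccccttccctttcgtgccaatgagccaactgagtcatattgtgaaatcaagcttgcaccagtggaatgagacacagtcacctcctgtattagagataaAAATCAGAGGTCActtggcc
Tbl1xr1, 89.7 kb upstream, chr3:21885844-21885980: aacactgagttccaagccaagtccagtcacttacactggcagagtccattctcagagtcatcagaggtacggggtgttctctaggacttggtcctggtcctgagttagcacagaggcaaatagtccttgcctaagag
Tbl1xr1, 80.9 kb upstream, chr3:21894582-21894718: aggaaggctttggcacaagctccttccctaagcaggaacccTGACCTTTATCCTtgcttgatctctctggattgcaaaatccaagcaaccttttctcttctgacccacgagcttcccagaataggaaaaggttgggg
Tbl1x, 1.88 kb upstream, chrX:74754617-74754753: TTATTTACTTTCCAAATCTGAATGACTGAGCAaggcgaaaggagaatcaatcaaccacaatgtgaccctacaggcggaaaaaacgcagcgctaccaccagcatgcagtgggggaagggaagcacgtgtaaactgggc
A match of this kind was found in 8.85% of all 48960 GPS2 peak windows searched on both strands, which were 137 to 423 bases long, and AGGTCA itself was found in 23.9% of them. The 250 bases before the RefSeq start of *Tbl1xr1* (GRCm38.p6, plus strand) are shown because every antibody against a factor had a peak at this start. Capitals mark the GC box, GGGCGG, on the opposite strand.
Tbl1xr1 promoter, chr3:22076402-22076651: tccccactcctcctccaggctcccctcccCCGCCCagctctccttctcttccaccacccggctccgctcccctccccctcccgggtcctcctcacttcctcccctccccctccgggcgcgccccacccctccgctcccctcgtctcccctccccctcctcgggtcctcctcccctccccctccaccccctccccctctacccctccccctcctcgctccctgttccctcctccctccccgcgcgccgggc
GGGCGG was found on either strand in 32.7% of 32851 such promoters. Neither AGGTCA nor CCAAT was found in the *Tbl1xr1* window.

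RNA of the subunits was compared between WT and *Gps2* LKO livers to see whether losing 1 subunit went with a change of the others. *Gps2*, *Ncor1* and *Tbl1x* were lower in LKO livers, and *Hdac3* and *Tbl1xr1* were not called. These are 3 of 5 genes, while 44.8% of the 12220 genes tested were called and 21.4% were lower, by edgeR's quasi-likelihood test at a Benjamini-Hochberg adjusted p below 0.05. Levels are in counts per 1000000 (CPM, scaled by TMM). *Gps2*, the deleted gene, had 16.4, 15.8, 16.7 and 15.1 CPM in WT and 12.7, 9.87, 9.17 and 12.9 CPM in LKO livers. The groups did not overlap, and the LKO level was 69.0% of WT (log2 fold change -0.53 ± 0.11, SE, adjusted p = 0.0021). Whole-gene counts do not separate the floxed exons from the rest of the transcript, and they include cells without Alb-*Cre*. In bulk liver, fewer cells of a type and less RNA per cell cannot be told apart.

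*Ncor1*, the scaffold, had 107, 116, 118 and 107 CPM in WT and 57.7, 97.8, 73.4 and 59.0 CPM in LKO livers. All LKO libraries were below all WT libraries, though LKO library 2 was close to them (log2 fold change -0.63 ± 0.13, SE, adjusted p = 0.0021). *Tbl1x* had 26.6, 25.1, 29.5 and 24.5 CPM in WT and 14.5, 24.6, 18.8 and 11.8 CPM in LKO livers, and here LKO library 2 reached the WT range (log2 fold change -0.58 ± 0.17, SE, adjusted p = 0.013). *Hdac3*, the catalytic subunit, had 31.2, 32.3, 35.1 and 34.3 CPM in WT and 30.6, 28.0, 31.0 and 32.6 CPM in LKO livers, with overlapping groups (log2 fold change -0.12 ± 0.08, SE, adjusted p = 0.20). *Tbl1xr1* had 37.8, 35.3, 41.4 and 35.9 CPM in WT and 31.8, 41.0, 34.5 and 29.7 CPM in LKO livers, and the groups overlapped (log2 fold change -0.13 ± 0.10, SE, adjusted p = 0.30). Over all genes, the groups were separate with the LKO libraries lower in 19.1%. Per kilobase of exon (RPKM), the WT level was highest for *Hdac3* (16.6 ± 0.89, SD, n = 4), followed by *Gps2* (13.1 ± 0.59), *Tbl1x* (11.5 ± 0.96) and *Ncor1* (10.1 ± 0.54), and it was lowest for *Tbl1xr1* (4.63 ± 0.34). The ranges of *Tbl1x* and *Ncor1* lay next to each other, 10.6 to 12.8 and 9.57 to 10.6.

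**Figure D1:**
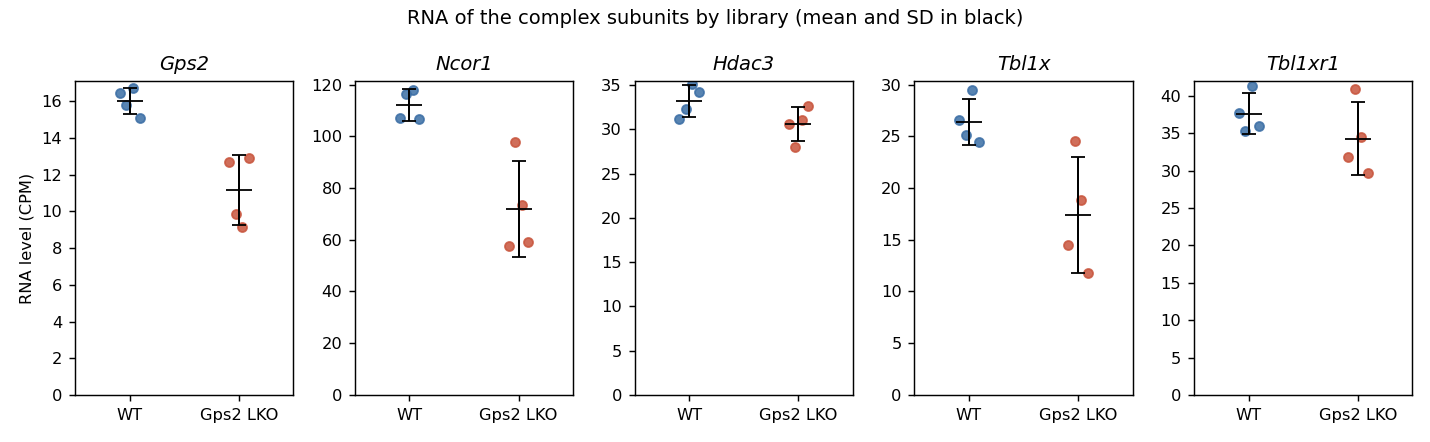
RNA level in CPM (vertical axes, from 0) of the 5 subunit genes in 4 WT and 4 *Gps2* LKO livers, with points for libraries and black bars for the mean and SD. *Gps2* and *Ncor1* are separate between the groups, *Tbl1x* is lower with LKO library 2 in the WT range, and *Hdac3* and *Tbl1xr1* overlap.

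The LKO libraries differed from each other in the level of genes with long exons. The median log2 level of genes with over 5000 bases of exon, relative to genes with up to 1500, was 0.21 to 0.32 in the WT libraries, 0.22 in LKO library 2, and -0.54, -0.24 and -0.50 in LKO libraries 1, 3 and 4. *Ncor1* has 11144 bases of exon, *Tbl1xr1* 8127, *Tbl1x* 2302, *Hdac3* 2005 and *Gps2* 1220. With the trend on exon length removed from each library, *Gps2* was at -0.78 (adjusted p = 2.9e-06), *Tbl1x* at -0.64 (adjusted p = 0.0039), *Ncor1* at -0.26 (adjusted p = 0.00061) and *Hdac3* at -0.25 (adjusted p = 0.0033), so that 4 of 5 genes were lower, against 22.1% of all genes, while *Tbl1xr1* turned to 0.15 (adjusted p = 0.055). *Ncor1* stayed called with a smaller change in log2. Without LKO libraries 1 and 4, left out after the data were seen, *Gps2* (-0.76, adjusted p = 6.4e-05) and *Ncor1* (-0.40, adjusted p = 0.0077) were called and *Tbl1x* was not (-0.29, adjusted p = 0.066).

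Of 9 further subunits and partners of the complex, 2 were higher and 3 lower (median log2 fold change -0.29, against 0.03 over all genes). With the length trend removed 3 were higher and 2 lower, with a median of 0.01. *Coro2a*, an actin-linked partner, rose from a mean of 0.529 to 1.13 CPM (1.07 ± 0.26, SE, adjusted p = 0.0051). *Prox1*, a hepatocyte transcription factor that binds corepressors, fell from 84.3 to 43.1 CPM. Among 9 other class I HDACs and sirtuins only *Sirt7* was called (0.28, adjusted p = 0.012), while with the length trend removed 0 were higher and 3 lower. Of 13 NuRD genes 2 were higher and 5 lower, of 13 SIN3 genes 2 were higher and 4 lower, and of 8 CoREST genes 0 were higher and 4 lower, with *Rcor1*, the scaffold, falling from 13.7 to 7.22 CPM. With the length trend removed these lists had 1 higher and 3 lower, 1 and 4, and 0 and 3. Of 17 nuclear receptors that bind NCOR, 3 were higher and 6 lower, and 2 and 4 with the length trend removed. *Rarb* rose from 3.42 to 7.10 CPM and *Pparg* from 7.83 to 12.7 CPM, while *Nr1d1*, a circadian repressor that works through NCOR, fell from 58.2 to 40.4 CPM. The 12 coactivators moved mostly one way, with 1 higher and 10 lower (median -0.50, and -0.30 with the length trend removed). *Kat2b*, *Ep300* and *Crebbp*, all histone acetyltransferases, fell by 0.68, 0.60 and 0.81 on the log2 scale. All 7 stellate cell markers were higher, with a summed level of 182 to 190 CPM in WT and 339 to 351 CPM in LKO libraries, as were 5 of 6 tested Kupffer cell markers (76.8 to 79.8 against 104 to 122 CPM) and 4 of 7 hepatocyte markers, which held 107920 to 111834 CPM in WT and 144769 to 174272 CPM in LKO libraries. Of cholangiocyte markers 3 of 5 were higher, of endothelial markers 2 of 6, and of red blood cell genes 4 of 5 were higher and 1 was lower, while no lymphocyte marker passed the filter on low counts. None of these marker lists had a gene at 0 in every library, and their part in the subunit results was not tested. Over all genes tested, 23.4% were higher and 21.4% lower. Marker counts and sums are not given with the length trend removed.

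Over 8 libraries and 8570 genes with at least 100 counts on average, the RNA most like that of *Ncor1* was that of *Arel1*, *Nbeal1* and *Arhgef12* (Pearson r of log levels, the highest 0.9985), and for *Tbl1x* it was *Kmt2b*, *Brd3* and *Gprin3*. Those of *Gps2* were *Hsd17b2*, *Angptl4* and *Vnn3*, the highest at 0.987. These correlations share the groups and the libraries, and they are given as a description.

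GPS2 was precipitated from 1 WT and 1 *Gps2* LKO liver library to map where GPS2 sits. Peaks lay at the complex's own genes: 37 were assigned to *Tbl1xr1*, 10 to *Tbl1x*, 2 to *Ncor1*, 1 to *Hdac3* and 0 to *Gps2*. All 50 fell by more than 2-fold in the LKO library, as did 99.6% of all 49018 peaks. Levels here and below are tags per 10 M (M, 1000000). The peak on the *Tbl1xr1* start went from 72.3 to 0, at least 35.6-fold lower, with 3 tags as the floor of the LKO library. The highest, 141 kb upstream of it, went from 85.8 to 0.676, and the one 114 kb upstream from 74.9 to 0.676. At *Tbl1x* the peak 1.88 kb upstream went from 51.6 to 0 (at least 25.5-fold), at the *Ncor1* start from 17.4 to 0 (at least 8.59-fold) and at the *Hdac3* start from 7.74 to 0 (at least 3.82-fold). There is no replicate check on this pair, and the LKO library held 0.310% of its tags in peaks against 7.07% in WT.

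Peaks of the 8 binding tables merged into 157 sites at the 5 genes, of which 92 belonged to *Tbl1xr1*, 37 to *Tbl1x*, 21 to *Ncor1*, 5 to *Hdac3* and 2 to *Gps2*. GPS2 had a peak at 66 of them, NCOR at 123 and PPARα at 117. A peak of all 3 factors lay at 58 sites, 42 of which were *Tbl1xr1* sites. Of the 66 GPS2 sites, 62 also had an NCOR or PPARα peak. Any listed peak was counted, also one with few tags. PPARα peaks were counted whether or not their tags were lower in *Ppara* KO livers. The share over all GPS2 sites was not counted. The paper reports that most GPS2 peaks of the genome overlapped PPARα-binding sites, so such overlap is not particular to these genes. A peak in every one of the 8 tables lay at 22 sites, 17 at *Tbl1xr1*, 3 at *Tbl1x* and 2 at *Ncor1*. Of all 157 sites, 107 overlapped an H3K27ac region.

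GPS2 binding was then compared in livers without NCOR and without PPARα. In *Ncor* LKO livers 0 of 60 GPS2 peaks at the subunit genes were called by edgeR, against 0.0338% of all peaks. At an unadjusted p below 0.05, 18 were lower and 1 was higher, while 33.9% of all peaks were lower. DESeq2 called 13, and 14.1% of all peaks. The *Tbl1xr1* start had 78.5, 114 and 35.4 tags in WT and 30.6, 35.4 and 24.4 in LKO livers (log2 fold change -1.33 ± 0.61, SE, adjusted p = 0.12). WT libraries 1 and 2 were above all LKO libraries and WT library 3 was level with the highest. Without WT library 3, 37 member peaks were called, as were 59.5% of all peaks. The median over members was -1.02, and over all GPS2 peaks -1.12, and 2.45 to 8.23% of tags lay in peaks. In *Ppara* KO livers 0 of 28 GPS2 peaks were called by edgeR or DESeq2, and 0.273% of all peaks were called by edgeR. At an unadjusted p below 0.05, 9 were lower, as were 23% of all peaks. The *Tbl1xr1* start had 28.4, 23.4 and 35.4 tags in WT and 18.2, 22.7 and 5.77 in KO livers, and the groups did not overlap (-0.90 ± 0.54, SE, adjusted p = 0.27). The median over members was -0.97 and over all peaks -0.93.

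**Figure D2:**
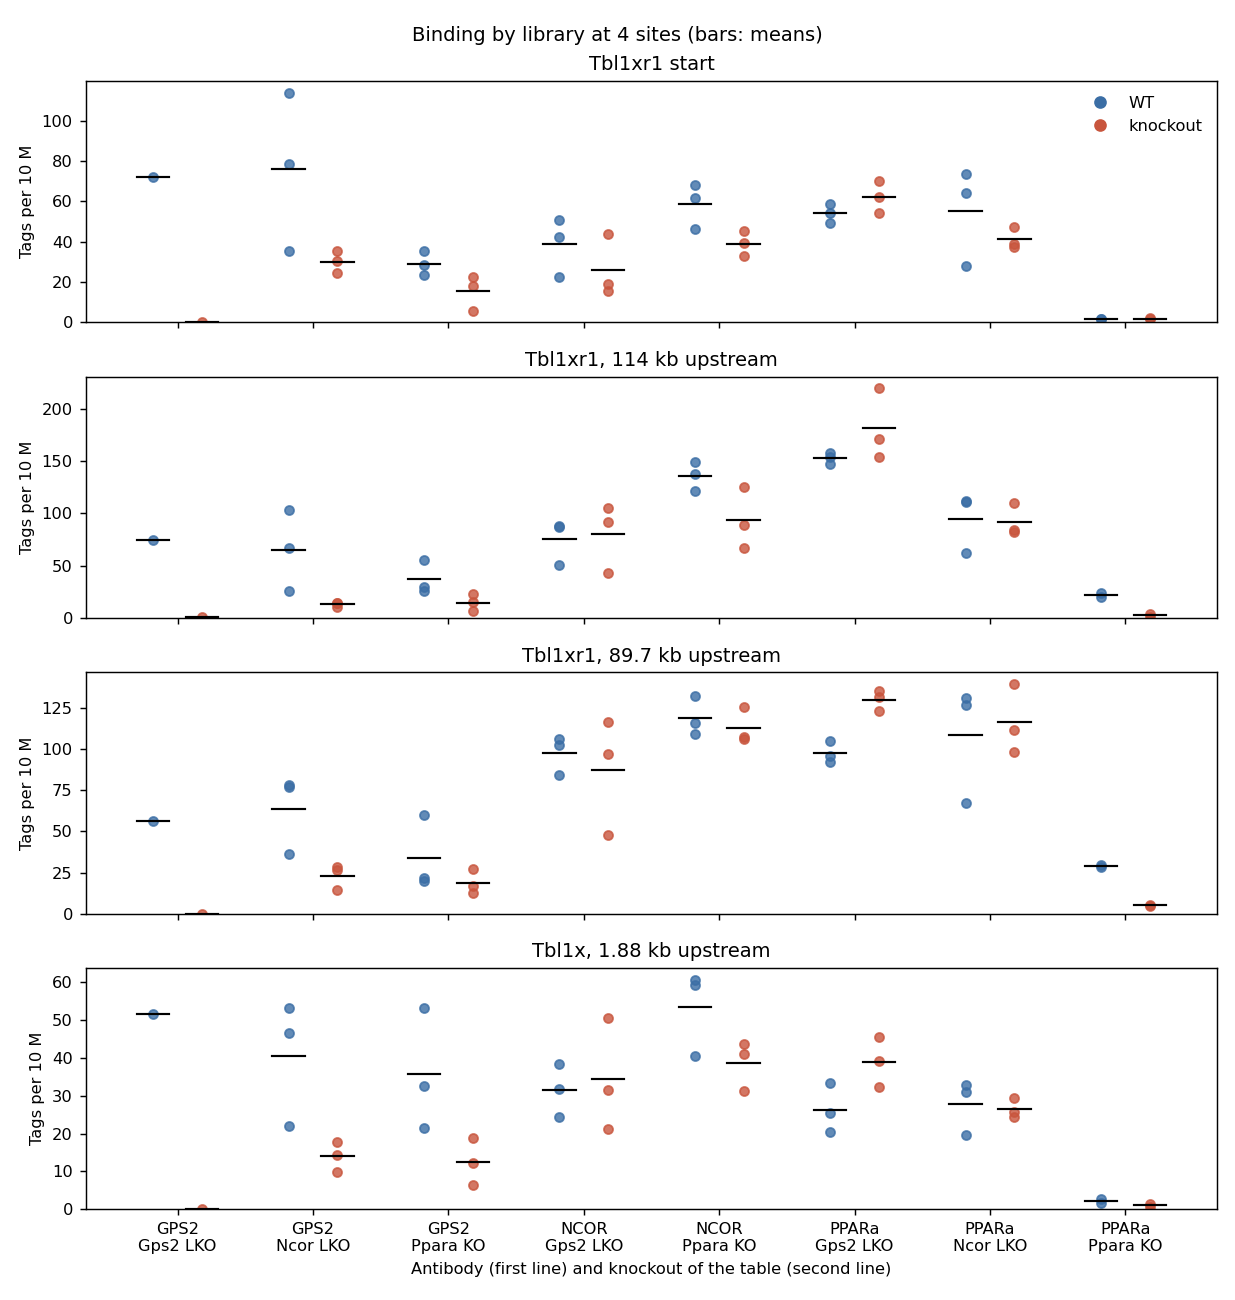
Tags per 10 M (vertical axes, from 0) at 4 sites, by antibody and knockout (horizontal axis), with blue points for WT libraries, red points for knockout libraries and black bars for means. GPS2 in the *Gps2* LKO library is at or near 0 at all 4 sites, NCOR in WT and *Gps2* LKO libraries overlaps, and the PPARα table of the *Ppara* line has few tags at the *Tbl1xr1* start and at the *Tbl1x* site and more at both distant *Tbl1xr1* sites. The 3 blue PPARα points of the *Gps2* line were counted as 1 sample.

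NCOR binding was compared in *Gps2* LKO livers, and 0 of 84 peaks at the subunit genes were called by edgeR or DESeq2, and 0.0173% of all peaks were called by edgeR. At an unadjusted p below 0.05, 2 were higher, as were 1.78% of all peaks. At the *Tbl1xr1* start NCOR had 42.5, 50.9 and 22.6 tags in WT and 18.8, 43.7 and 15.7 in LKO livers, with overlapping groups (-0.57 ± 0.46, SE). In *Ppara* KO livers 1 of 119 NCOR peaks was lower, against 2.51% of all peaks. It lay 650 kb upstream of *Tbl1xr1*, with 57.7, 67.9 and 69.9 tags in WT and 25.3, 22.2 and 17.1 in KO livers (-1.60 ± 0.28, SE). Its groups were far apart. At the *Tbl1xr1* start NCOR had 68.3, 46.4 and 61.5 tags in WT and 39.2, 45.1 and 32.7 in KO livers, which did not overlap but were not called (-0.59 ± 0.25, SE, adjusted p = 0.22).

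PPARα binding was higher in *Gps2* LKO livers at 33 of 103 peaks of the subunit genes and lower at 0, while 21.5% of all peaks were higher and 0.147% lower. The 3 WT libraries differed by less than the sampling noise (chi-square per peak 0.923 to 0.937, against 1.37 to 1.80 between LKO libraries) and were counted as 1 sample, so the spread was estimated from the 3 LKO libraries alone and the WT sample is assumed to vary like them. Of the 33 peaks, 29 were among the 66 of *Tbl1xr1*, 3 among the 19 of *Tbl1x* and 1 among the 13 of *Ncor1*. The median over members was 0.78 and over all peaks 0.62, so a large part of the rise was shared by the table, and with TMM scaling, which removes it, 1 member peak was called, against 0.973% of all. The peak 158 kb upstream of *Tbl1xr1* had 22.8, 33.2 and 21.4 tags in WT and 54.0, 83.4 and 82.1 in LKO livers (1.49 ± 0.27, SE). It was far apart between the groups. The *Tbl1x* peak 37.6 kb upstream had 17.7, 21.8 and 15.8 tags in WT and 55.2, 58.7 and 38.1 in LKO livers (1.40 ± 0.30, SE). The *Tbl1xr1* start had 49.4, 54.1 and 58.6 tags in WT and 54.0, 70.1 and 62.2 in LKO livers and was not called (0.20 ± 0.24, SE, adjusted p = 0.54). Without LKO library 3 the count was 15, against 9.91% of all.

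In *Ncor* LKO livers PPARα was higher at 1 of 92 peaks, against 0.151% of all. It lay 118 kb upstream of *Tbl1xr1* and had 6.17, 8.01 and 3.33 tags in WT and 19.4, 24.5 and 35.9 in LKO livers (2.19 ± 0.55, SE, adjusted p = 0.037). The same place had 7.59, 21.8 and 21.4 tags in WT and 37.9, 18.9 and 38.1 in LKO livers of the *Gps2* line. The call was lost when any library but WT library 3 was left out. In *Ppara* KO livers, which lack the antibody's target, PPARα tags were lower at 13 of 44 peaks, against 27.6% of all, 12 at *Tbl1xr1* and 1 at *Tbl1x*. The site 89.6 kb upstream of *Tbl1xr1* had 28.3 and 29.8 tags in WT and 4.81 and 5.13 in KO livers (-2.53 ± 0.34, SE). The site 114 kb upstream had 19.8 and 23.7 tags in WT and 4.12 and 0.733 in KO livers (-3.08 ± 0.49, SE), and these groups were also far apart. At the *Tbl1xr1* start this table had 1.42 and 1.53 tags in WT and 2.06 and 1.47 in KO livers. None of the 13 was called with TMM scaling, where 3.6% of all peaks were called. With the replicate number as a block none was called either, but 0% of all peaks were called there. That setting therefore does not set these sites apart from the rest of the table. Leaving out any 1 library leaves 1 library in a group, and the log2 fold changes of all 13 stayed negative in each such fit.

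H3K27ac at the subunit genes was higher in *Ncor* LKO livers at 16 of 59 regions and lower at 0, against 2.32% of all regions higher and 0.801% lower. All 16 were *Tbl1xr1* regions, of 33 assigned to it. The median log2 fold change of the 33 was 0.90, and all were above 0, while the median over all regions was -0.003. The region over the *Tbl1xr1* start had 933, 943 and 829 tags in WT and 1379, 1726 and 1494 in LKO livers (0.77 ± 0.11, SE, adjusted p = 0.0068). The 142 kb region had 253, 290 and 256 tags in WT and 535, 726 and 554 in LKO livers (1.18 ± 0.13, SE, adjusted p = 0.0032). The 116 kb region had 269, 281 and 269 tags in WT and 549, 943 and 709 in LKO livers (1.42 ± 0.17, SE, adjusted p = 0.0039). In each of these called regions every LKO library was above every WT library. The share of all regions with such a separation was not counted. The largest change among regions with at least 50 WT tags was at the 169 kb region, with 67.8, 75.0 and 73.8 tags in WT and 176, 278 and 193 in LKO livers (1.58 ± 0.17, SE, adjusted p = 0.0031). A region inside this run, 124 kb upstream and named after its value was seen, was at 0.07 and not called (adjusted p = 0.91). Of the 16 called regions 13 held a GPS2 site and 12 a site of all 3 factors, and of the 17 others 8 held one. The called regions were wider, with a median of 2.60 against 0.774 kb, and a wider region can hold more sites.

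**Figure D3:**
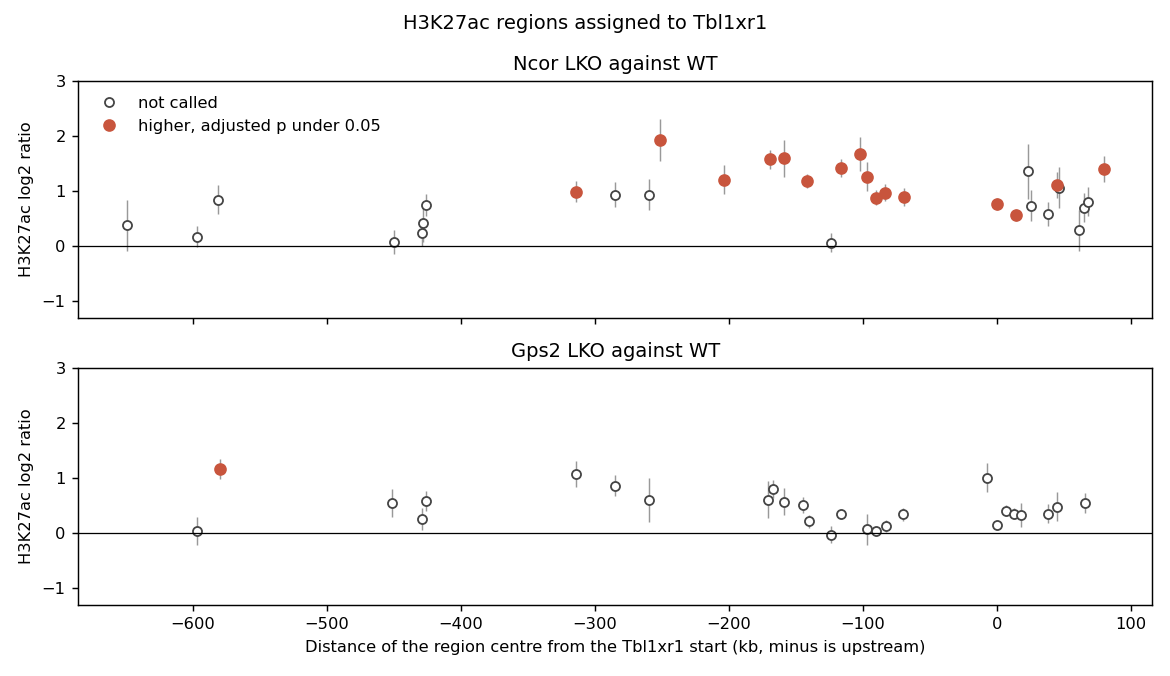
Log2 ratio of H3K27ac, knockout over WT (vertical axes, with SE bars), for each region assigned to *Tbl1xr1*, by distance of its centre from the start in kb (horizontal axis), in *Ncor* LKO and *Gps2* LKO livers. Red points mark regions called higher, 16 of 33 in *Ncor* LKO and 1 of 27 in *Gps2* LKO livers.

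The count rested on single libraries. It was 4 without WT library 3, 5 without WT library 2, 8 without WT library 1 or LKO library 3 and 19 without LKO library 1, and the start region was called in each. Over all regions, 0.577 to 3.06% were called in these settings. Summed over its 33 regions, *Tbl1xr1* was at 0.92 (adjusted p = 0.0070). The other subunit genes were not called. *Tbl1x* had 14 of 15 regions above 0 with a median of 0.41, and its start had 381, 402 and 375 tags in WT and 546, 423 and 423 in LKO livers (0.27 ± 0.12, SE, adjusted p = 0.31). The starts of *Gps2*, *Hdac3* and *Ncor1* were at -0.14, 0.16 and -0.11, with overlapping groups.

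**Figure D4:**
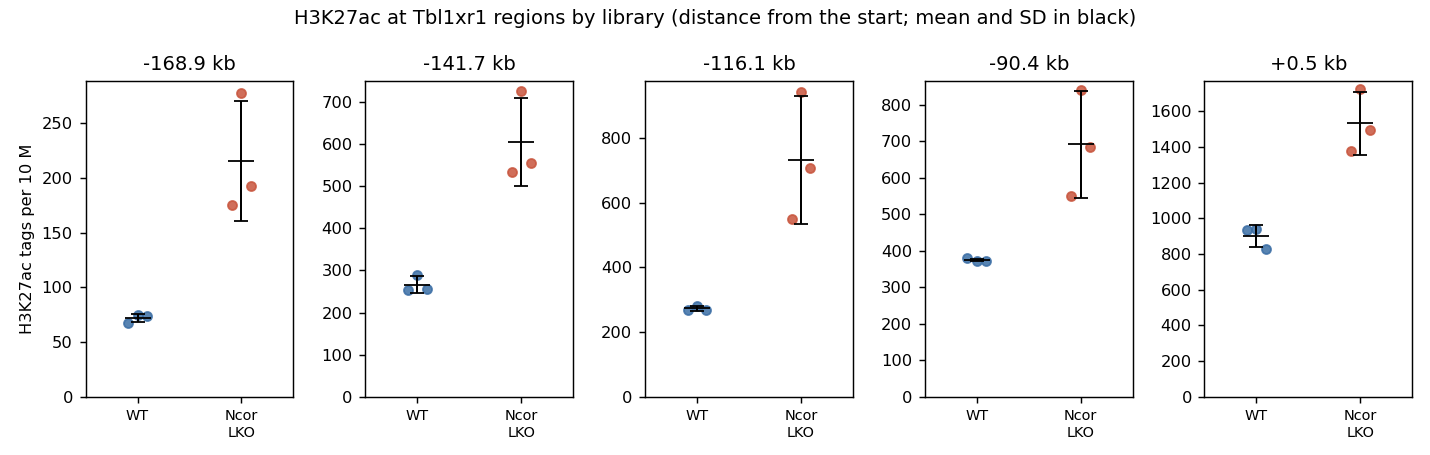
H3K27ac tags per 10 M (vertical axes, from 0) at 5 *Tbl1xr1* regions, named by distance from the start, in 3 WT and 3 LKO libraries of the *Ncor* line, with black bars for the mean and SD. LKO libraries are above WT libraries in every panel, and each region shown was among those called higher.

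In *Gps2* LKO livers 1 of 46 H3K27ac regions at the subunit genes was higher, against 1.21% of all. It lay 580 kb upstream of *Tbl1xr1*, with 19.6 and 19.4 tags in WT and 42.5 and 45.2 in LKO livers (1.17 ± 0.19, SE, adjusted p = 0.031), and it was not called without WT library 1 or without WT library 2. Without LKO library 1 there were 4 calls, against 6.38% of all regions, and without LKO library 2 there were 6, against 3.60%. Of 27 *Tbl1xr1* regions 26 were above 0, with a median of 0.41 against 0.06 over all regions. The start had 696 and 680 tags in WT and 803 and 723 in LKO livers (0.15 ± 0.08, SE, adjusted p = 0.49), and the starts of the other genes were between 0.02 and 0.09. H3K4me3 was called at 0 of 10 regions by edgeR and DESeq2, against 0.916% of all by edgeR. Past an unadjusted p of 0.05 there were 0, against 6.39% of all regions higher and 1.67% lower. The WT level of H3K4me3 was highest at the *Ncor1* start, with 1328 and 1341 tags, then at *Tbl1xr1*, with 1115 and 998. Means were 574, 550 and 546 at the *Tbl1x*, *Hdac3* and *Gps2* starts. RNA polymerase II, with 1 library a group, had 186 tags in WT and 201 in LKO at the *Ncor1* start, 99.5 and 104 at *Hdac3*, 60.1 and 70.6 at *Gps2* and 34.3 and 35.3 at *Tbl1x*. At *Tbl1xr1* the peak 0.518 kb upstream of the start had 81.5 and 68.9 tags, and the peak on the start had 41.2 and 45.4. Of 13 peaks 2 were lower by more than 2-fold, against 5.94% of all, and they had 11 and 9 raw tags in WT, with 95% Poisson intervals of the ratio that include 1. Intervals and floors cover counting error only.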

How the data were processed

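Liver RNA-seq and ChIP-seq tables deposited by the authors were used, and 2 input libraries were not. Samples were grouped from their labels. The RNA values are read counts per gene as the authors deposited them, without normalization. The authors' methods name HISAT2, mm9 and HOMER, while the coordinates of the deposited table are those of GRCm38 and the submitters' processing notes also name featureCounts, so the counting program is not settled. The ChIP values are raw tag counts per peak, which the authors made with Bowtie and HOMER on mm9 and deposited with each library's total tags. Columns of the authors' own comparisons (fold changes and p-values) were not used. RNA libraries held 13.2 to 20.1 M counts (M, 1000000) and ChIP libraries 7.90 to 46.1 M tags.

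RNA was tested with edgeR 4.0.16 in R 4.3.3 (TMM scaling, filterByExpr, quasi-likelihood test), and peaks with at least 1 tag in the same way with scaling to total tags, as the methods normalize peak heights. Values are tags per 10 M. P-values were adjusted over all genes or peaks of a table (Benjamini-Hochberg), with calls at 0.05. In the table that H3K27ac and H3K4me3 of the *Gps2* line share, regions were tested where the deposited peak lists (positions only) called that mark in at least 2 libraries. With 1 library a group, exact 95% Poisson intervals and a 2-fold limit were used. DESeq2 1.42.0, other scalings, a filter on low tags, sums per gene, the replicate number as a block and leaving out each library were alternatives. The tests were also run on simulated data. There, 0% of 2-fold changes were recovered for GPS2 binding in *Ncor* LKO and *Ppara* KO livers and for NCOR binding in *Gps2* LKO livers. The same held for PPARα binding in *Ncor* LKO and *Ppara* KO livers. Recovery was 47% for NCOR in *Ppara* KO livers, 57 to 80% for the histone marks and 100% for RNA. It was 90% for PPARα in *Gps2* LKO livers with separate WT libraries. Of 1.5-fold changes, 5% were recovered for NCOR in *Ppara* KO livers and 6 to 27% for the histone marks. For PPARα in *Gps2* LKO livers 21% of them were recovered, and for RNA 87%. Few or 0 calls where 0% was recovered do not show unchanged binding. Peaks were named where they had the most tags within 1000 bp of a start or were called, and from each gene list at most 3 called genes with the largest change were named. The subunit genes and the gene lists were chosen with earlier results of these data known. Proteins were not analysed here, and 1 gene and the comparisons that need it are not reported here.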

Additional observations from a re-analysis of the deposited data

How the results depend on the processing

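RNA calls stayed at 3 subunit genes with DESeq2 size factors and were 5 with scaling to total counts, where the median of all genes moved to -0.15 and the split over all genes was 1561 higher and 4632 lower, against 2856 and 2621. Over all genes, these scalings called 44.7% and 50.7%. Leaving out a library gave 3 to 4, against 35.4 to 56.6% of all genes. Leaving out LKO libraries 1 and 4 together, chosen after seeing the data, gave 2, against 31.4%.

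For H3K27ac at the subunit genes, the 16 calls in *Ncor* LKO livers were 9 with the replicate number as a block and 1 gene when summed per gene. They were 4 to 19 without single libraries. Over all regions or genes, 1.66%, 3.0% and 0.577 to 3.72% were called there. The 1 call in *Gps2* LKO livers was 5 with the replicate block, 4 with all peaks of the shared table and 0 summed per gene. Over all regions or genes these settings called 5.23%, 1.26% and 1.84%.

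GPS2 peaks called in *Ncor* LKO livers were 5 with TMM scaling, 13 with DESeq2, 6 with a filter on low tags, 15 with the block and 0 to 37 without single libraries, while 2.23%, 14.1%, 6.83%, 18.7% and 0 to 59.5% of all peaks were called. NCOR in *Ppara* KO livers gave 2 with TMM scaling, 0 per gene and 1 to 2 without single libraries. Of all NCOR peaks or genes there, 1.81%, 6.02% and 1.05 to 2.48% were called. PPARα in *Gps2* LKO livers gave 1 with TMM scaling, 4 with DESeq2, 4 per gene and 15 to 37 without single libraries. Of all PPARα peaks or genes there, 0.973%, 1.7%, 58.3% and 9.91 to 24.2% were called. In *Ncor* LKO livers it gave 3 with TMM scaling, 0 with the block, 0 per gene and 0 to 2 without single libraries, and in *Ppara* KO livers 0 with TMM scaling, 8 with DESeq2, 8 with the filter, 0 with the block, 2 per gene and 0 to 12 without single libraries. Of all PPARα peaks or genes, 1.74%, 0%, 0.104% and 0.0058 to 0.969% were called in *Ncor* LKO livers. In *Ppara* KO livers 3.6% were called with TMM scaling, 17.3% with DESeq2, 97.8% with the filter, 0% with the block and 56.8% per gene. Nearly all peaks were called with the filter, so its 8 calls do not set the subunit genes apart. The range without single libraries there rests on 1 library in a group, so no share is given for it. Per gene, GPS2 in *Gps2* LKO gave 4 and RNA polymerase II 0. TMM scaling moved the split of all PPARα peaks in *Gps2* LKO livers from 22086 higher and 151 lower to 553 and 445, of GPS2 peaks in *Ncor* LKO livers from 0 and 19 to 999 and 258, and of NCOR peaks in *Ppara* KO livers from 157 and 2885 to 873 and 1206. The causes were not tested.

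The deviations of same-numbered samples correlated at 0.005 to 0.106 over genes for RNA, at 0.104 for H3K27ac in the *Gps2* line, which has 2 pairs, and at -0.018 to 0.269 for NCOR in *Ppara* KO livers. In no comparison with 3 or more pairs did every library correlate best with its own number, so the numbers were taken as names only. Where member peaks held few tags or libraries differed in their share of tags in peaks, a difference that was not called is not shown to be absent.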

Other observations

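*Tbl1xr1* and *Tbl1x* are paralogues, and a stretch of sequence is shared between a GPS2 window of each, noticed after the sequences were seen. In the window 141 kb upstream of *Tbl1xr1* (chr3:21835023-21835054) and the one 1.88 kb upstream of *Tbl1x* (chrX:74754617-74754648), 30 of 32 aligned bases are identical, 16 of them in a row. Those 16 bases, TCTGAATGACTGAGCA, occur 3 times in mm9 on both strands together. Among 1225 pairs of GPS2 windows at the subunit genes this pair had an ungapped score of 26, below a pair of adjacent *Tbl1xr1* windows at 33 and above the next at 13. The annotated coding transcripts of the 2 genes, 1 for each, share 0 distinct 50-base words. Whether the deposited RNA counts keep the 2 genes apart was not tested.

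The *Tbl1xr1* window lies where H3K4me3 was also found away from the annotated start, with 88.4 tags per 10 M in WT and 92.1 in *Gps2* LKO livers, and H3K4me3 78 kb upstream of *Tbl1x* had 59.4 and 69.9. RNA polymerase II near the first had 7 tags in WT and 12 in LKO.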
